A study of Mus musculus with 6 samples.

Results

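The subject is a set of 36 mouse genes that make cholesterol and fatty acids or control that synthesis, read in erythroid cells with and without knockdown of Mi2β, the chromatin remodeller encoded by Chd4. The genes were taken by name from the pathway: 18 enzymes that lead from acetyl-CoA to cholesterol, 5 sensors and transcription factors of the sterol response, 5 genes of sterol transfer, storage and the LXR receptors, and 8 genes of fatty acid synthesis and desaturation. Where a gene had several probes, the brightest one that cleared background on 3 or more of the 6 arrays stood for it. By that rule 33 of the 36 were tested, out of 22133 genes in all, and all 33 were well above background on all 6 arrays. The other 3, Insig1, Soat1 and Scd1, are described below without a test.

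G1E-ER-GATA-1 is a mouse erythroid progenitor line that lacks its own GATA-1 and carries a GATA-1 that is switched on by estradiol through a piece of the estrogen receptor, which starts erythroid maturation. Both groups were this line: 3 samples that received Mi2β siRNA, called knockdown here, and 3 that received non-targeting siRNA, called control. All 6 were transfected at 0 h and again at 24 h, treated with β-estradiol from 24 h and harvested at 48 h, and all grew in serum with erythropoietin, Kit ligand medium and puromycin. The study asked what loss of Mi2β does to the transcripts of these maturing cells, in 1 line at 1 time point. Whether the replicates were grown as separate cultures is not said in the labels. The p-values therefore cover the spread among these 6 samples alone, and that spread may be technical.

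Cholesterol is built from acetyl-CoA through mevalonate, farnesyl pyrophosphate, squalene and lanosterol. The genes of this route are classically switched together by SREBP-2, and those of fatty acid synthesis by SREBP-1c. Both factors are held in the endoplasmic reticulum by Scap and the Insig proteins while sterol is plentiful and are released when it is scarce. The LXR receptors sense oxidised sterols and work the other way, towards export and towards SREBP-1c. Red cell precursors need cholesterol for their membranes, and mature red cells no longer make it.

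Values below are log2 of the background-corrected signal minus that array's 75th percentile, so 0 is the 75th percentile of the array and a step of 1 is a doubling. Changes are knockdown minus control from limma, with Benjamini-Hochberg adjustment over all genes tested and a threshold of 0.05. A gene is said to have risen or fallen only where its adjusted p was under that threshold. All 6 arrays lay on 1 slide and were scanned in 1 session. The share of probes that cleared background ran from 48.5% to 74.0% over the knockdown arrays and from 53.0% to 56.4% over the control arrays, so the knockdown arrays held both extremes. The target itself, Chd4, read 4.62, 4.60 and 4.54 on the knockdown arrays and 5.93, 6.00 and 5.75 on the control arrays, a fall of 2.48-fold (log2 change -1.31, SE 0.10, limma adjusted p = 0.00161). All 10 erythroid marker genes were well above background on all 6 arrays. Their summed signal was 231795 to 281490 units on knockdown arrays and 285653 to 303488 on control arrays, without overlap. This sum and those below add signals that were not scaled to each array's 75th percentile. Ahsp alone gave 58996 to 74513 units on knockdown arrays and 123916 to 133069 on control arrays. Without Ahsp the erythroid sum was higher on each knockdown array than on any control array. Of the 10, Ahsp (log2 change -1.11), Slc4a1 (-1.04) and Gfi1b (-0.43) fell, Alas2 (1.06) and Epb42 (1.85) rose, and 5 did not pass. The summed signal of the megakaryocyte markers was 6546 to 8245 units on knockdown arrays and 14670 to 18236 on control arrays, with 6 of 7 detected and Ppbp at background. For mast cell markers the sum was 1156 to 1426 units on knockdown arrays and 280 to 334 on control arrays, with 4 of 6 detected and the receptor genes Ms4a2 and Fcer1a at background. The sum for macrophage markers was 1525 to 1754 units on knockdown arrays and 1291 to 1409 on control arrays, with 3 of 7 detected; of these Cd68 rose (0.53) while Csf1r (-0.33) and Adgre1 (-0.15) did not pass. The sum for lymphocyte markers was 6790 to 7978 units on knockdown arrays and 4480 to 5291 on control arrays, with 4 of 6 detected; of these Ptprcap rose (1.22) while Cd3e (-0.05), Cd4 (-0.19) and Cd79a (0.21) did not pass. Their part in the results below was not tested, and in bulk RNA fewer cells of a type and less RNA per cell cannot be told apart.

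Of the 18 enzymes of the cholesterol route 6 fell in Mi2β knockdown cells and 12 did not pass, and of 7 tested genes of fatty acid synthesis 2 fell and 1 rose. Of the 33 members tested, 10 fell, 1 rose and 22 did not pass the test. Among all genes tested 4.56% fell and 4.99% rose, 9.56% in either direction. Among the genes well above background on all 6 arrays, as all 33 members were, 5.29% fell and 5.09% rose. The 10 that fell were Hmgcs1, Mvd, Idi1, Fdps, Lss and Sc4mol (now Msmo1) among the sterol enzymes, Scap and Stard4 in sterol sensing and transfer, and the desaturases Fads1 and Fads2. The 1 that rose was the fatty acid elongase Elovl6. The median change of the 33 was -0.48, against -0.03 over all genes tested.

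Fewer members fell with any 1 array left out, and the count over all genes was smaller too. Such fits have fewer arrays and so less power. A call lost in them does not by itself show that it rested on the array left out. Without knockdown replicate 1 the falls numbered 2 of 33 members and 256 of all genes, without knockdown replicate 2 they numbered 4 and 462, and without knockdown replicate 3 they numbered 7 and 635. Without control replicate 1 the numbers were 4 and 384, without control replicate 2 they were 5 and 416, and without control replicate 3 they were 7 and 681. Elovl6 rose in each of these 6 fits. With array median scaling, which moved the median of all genes to -0.27, only Stard4 among the members passed, as a fall.

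**Figure D1:**
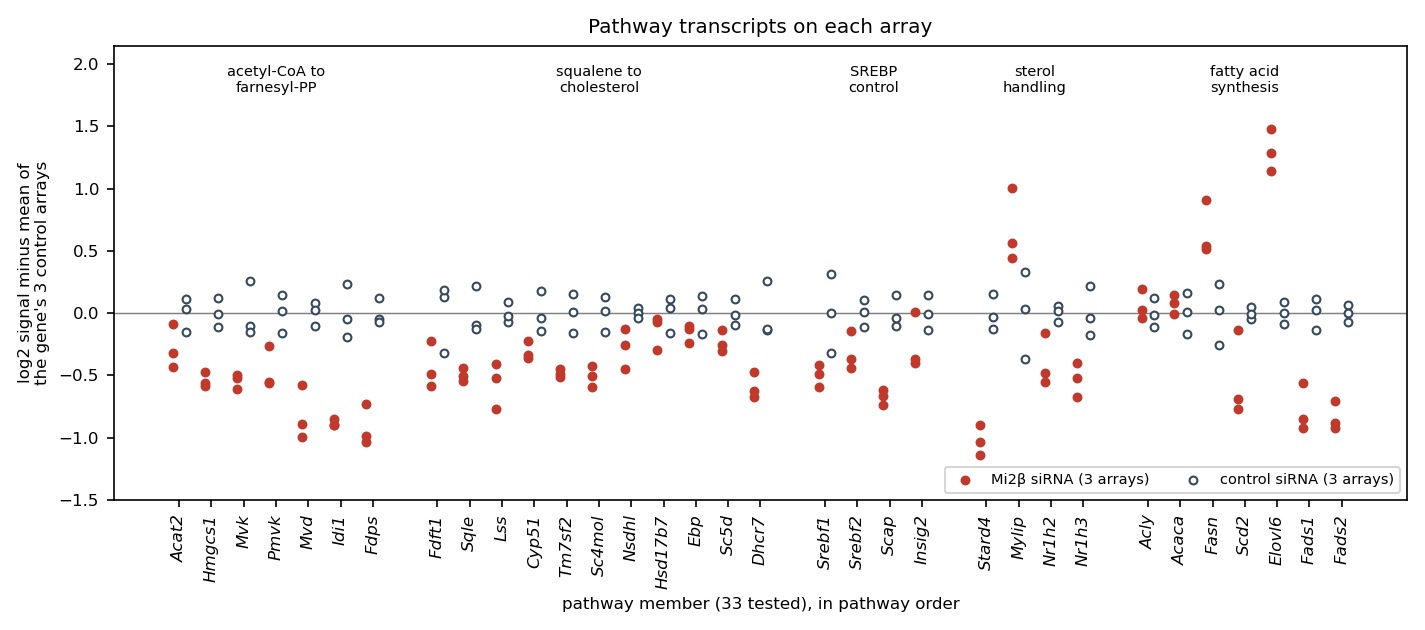
Each point is 1 array: the log2 signal of a member minus the mean of that gene's 3 control arrays (vertical axis, log2 units), for the 33 tested members in pathway order (horizontal axis), with the 3 Mi2β siRNA arrays filled and left of the 3 control siRNA arrays, which are open. In 23 members all knockdown points lie below all control points, against 18.4% of all genes tested, and in 3 members, Mylip, Fasn and Elovl6, they all lie above, against 12.7% of all genes.

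The 18 sterol enzymes shared a sign. All 18 had a change below 0, where 54.5% of all genes tested did and 58.1% of those well above background on all 6 arrays, and their median was -0.49. In 14 of the 18 all 3 knockdown arrays lay below all 3 control arrays, a pattern seen in 18.4% of all genes. By the adjusted test 6 of the 18 fell and 12 did not pass, and at an unadjusted limma p under 0.05, which 13.4% of all genes met with a lower value and 10.5% with a higher one, 13 were lower and 0 higher. The median deviation of the 18 from their control means was -0.50, -0.55 and -0.42 on knockdown replicates 1, 2 and 3, beside -0.05, 0.05 and -0.11 for all genes on the same arrays. Knockdown replicate 2, the array with the largest share of probes above background, gave the lowest of the 3 knockdown values for 11 of the 18, and replicate 1 for 6. The sign held for 18 of 18 under each of the 18 alternative settings tried. Array median scaling lowers every gene by the same amount, so under it the sign had to hold. It also had to hold with slide row or replicate number as a block, with the deposited table and with the other detection filters. Those settings leave each of these changes as in the main fit. With array median scaling none of the 18 passed, and their median of -0.72 stood against -0.27 for all genes.

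The slide carried replicates 1 and 2 of both groups in its first row and replicate 3 of both in its second. Within the first row alone all 18 sterol enzymes were lower in the knockdown, with a median difference of -0.57. There 2 of them passed the test, and 1.02% of all genes fell. Within the second row, where 1 knockdown array is set against 1 control array and no test is possible, 17 of 18 were lower with a median of -0.34. With slide row as a block in the fit, 4 sterol enzymes and 8 of 33 members fell, against 793 of all 22133 genes (3.58%).

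The first 7 enzymes, which lead from acetyl-CoA to farnesyl pyrophosphate, held the largest falls of the route. Of these, 4 fell and 3 did not pass, with a median change of -0.54. Acat2, the cytosolic thiolase that joins 2 acetyl-CoA units, overlapped between the groups (change -0.28, limma adjusted p = 0.271). Hmgcs1, which adds the next acetyl unit to make HMG-CoA, read 4.93, 5.05 and 4.96 on the knockdown arrays and 5.41, 5.51 and 5.64 on the control arrays. The groups did not overlap, and Hmgcs1 fell by 0.54 (SE 0.10, limma adjusted p = 0.0271), to 68.8% of the control level. Leaving out any 1 of the 6 arrays ended that call, with adjusted p from 0.0608 to 0.130.

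The next steps phosphorylate mevalonate and cut it down to isoprene units. Mevalonate kinase, Mvk, read 4.92, 4.83 and 4.94 in knockdown cells and 5.33, 5.70 and 5.29 in controls, without overlap, and its change of -0.54 did not pass (SE 0.14, limma adjusted p = 0.0636). Phosphomevalonate kinase, Pmvk, likewise did not overlap and did not pass (-0.46, limma adjusted p = 0.100). Its 2 probes disagreed in call: the dimmer one had a change of -0.60 and an adjusted p of 0.0269 in the limma fit over all probes. Mvd, the decarboxylase that makes isopentenyl pyrophosphate, read 2.27, 2.17 and 2.59 on the knockdown arrays and 3.25, 3.19 and 3.06 on the control arrays. Every knockdown value lay below every control value, and Mvd fell by 0.82 (SE 0.14, limma adjusted p = 0.0199), to 56.5% of the control level. Its call ended without knockdown replicate 1 (adjusted p = 0.0968), knockdown replicate 2 (0.0604), control replicate 1 (0.0816) or control replicate 2 (0.0745).

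Idi1 and Fdps had the largest changes of the route. Idi1, the isomerase that supplies dimethylallyl pyrophosphate, read 5.07, 5.07 and 5.12 on the knockdown arrays and 5.93, 6.21 and 5.78 on the control arrays. The 3 knockdown values were nearly equal and far below the controls, a fall of 0.88 (SE 0.13, limma adjusted p = 0.0126) to 54.2% of the control level. Fdps, the synthase that joins these units into farnesyl pyrophosphate, read 5.82, 5.87 and 6.13 in knockdown cells and 6.81, 6.98 and 6.78 in controls. It fell by 0.92 (SE 0.12, limma adjusted p = 0.00903), to 52.9% of the control level, the larger of the pair. Without knockdown replicate 1 neither call held (adjusted p = 0.0692 for Idi1 and 0.0538 for Fdps), and without control replicate 1 that of Idi1 did not (0.0520). The probes lie at chr13:8891524-8891583 for Idi1, chr3:88897549-88897608 for Fdps and chr8:124957750-124957809 for Mvd (mm9); the Hmgcs1 probe has no coordinate in the files.

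The 11 enzymes from squalene to cholesterol were lower by less, with 2 that fell, 9 that did not pass and a median change of -0.43. Whether the earlier and the later enzymes differ was not tested. Squalene synthase, Fdft1, overlapped between the groups (-0.43, limma adjusted p = 0.214). Squalene epoxidase, Sqle, read 4.79, 4.75 and 4.86 on the knockdown arrays and 5.20, 5.51 and 5.16 on the control arrays, which did not overlap, and its change of -0.49 did not pass (limma adjusted p = 0.0643). Lss, the cyclase that folds squalene epoxide into lanosterol, read 1.44, 1.20 and 1.55 in knockdown cells and 1.90, 2.06 and 1.94 in controls. The groups were apart, and Lss fell by 0.57 (SE 0.12, limma adjusted p = 0.0442), a call that each of the 6 single-array omissions ended (adjusted p 0.0558 to 0.148).

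The enzymes that trim lanosterol follow. Cyp51, the lanosterol demethylase, was lower without overlap and did not pass (-0.31, limma adjusted p = 0.182). Tm7sf2, a sterol reductase, missed the threshold narrowly: 1.95, 1.93 and 1.99 on the knockdown arrays and 2.28, 2.59 and 2.44 on the control arrays gave a change of -0.48 and an adjusted p of 0.0507. Sc4mol, the methylsterol monooxygenase, read 5.19, 5.10 and 5.26 in knockdown cells and 5.71, 5.82 and 5.54 in controls. It fell by 0.51 (SE 0.11, limma adjusted p = 0.0461), without overlap, and passed in 1 of the 6 fits with an array left out (adjusted p 0.0483 to 0.168), the one without control replicate 3.

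Most of the later steps showed small changes. Nsdhl and Hsd17b7, which finish the removal of the methyl groups with Sc4mol, changed by -0.28 (limma adjusted p = 0.206) and -0.14 (0.562), and Hsd17b7 overlapped between the groups. Dimmer probes of Hsd17b7 gave larger changes of -0.23 and -0.52, which did not pass in the limma fit over all probes (adjusted p = 0.479 and 0.155). Ebp, the sterol isomerase, overlapped too (-0.16, limma adjusted p = 0.479), with a 95% interval of the change from -0.44 to 0.12. Sc5d, the desaturase after it, changed by -0.23 (limma adjusted p = 0.239). Dhcr7, the final reductase of the route to cholesterol, read 0.87, 0.83 and 1.03 on the knockdown arrays and 1.76, 1.36 and 1.38 on the control arrays. These did not overlap, and the change of -0.59 did not pass (SE 0.14, limma adjusted p = 0.0578).

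**Figure D2:**
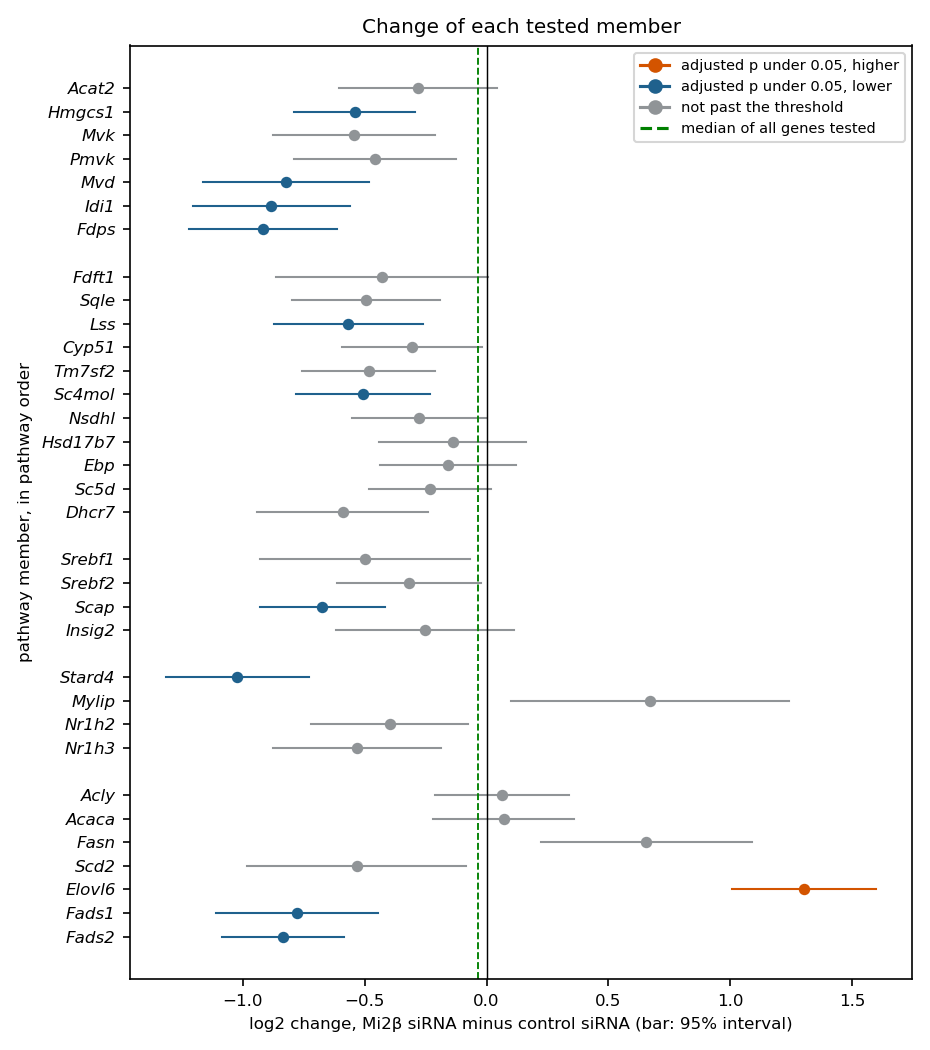
The log2 change of each tested member, Mi2β siRNA minus control siRNA (horizontal axis, log2 units; bars are 95% intervals from limma), in pathway order from top to bottom, coloured by call, with the median of all genes tested at -0.03 dashed. The 18 sterol enzymes at the top all lie left of 0, with Fdps at -0.92 and Hsd17b7 at -0.14 as the extremes, and Elovl6 near the bottom lies at 1.30.

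Among the sensors, Scap, the escort that carries SREBP out of the endoplasmic reticulum when sterol is scarce, was the member that fell. It read 3.26, 3.21 and 3.14 on the knockdown arrays and 3.77, 4.02 and 3.84 on the control arrays. The groups were well apart, with a fall of 0.67 (SE 0.10, limma adjusted p = 0.0149) to 62.7% of the control level, read by a probe at chr9:110287280-110287339 (mm9). The call ended without knockdown replicate 1 (adjusted p = 0.0701), knockdown replicate 2 (0.0538) or knockdown replicate 3 (0.0514).

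The transcription factors themselves did not pass. Srebf2, which encodes SREBP-2, changed by -0.32 (limma adjusted p = 0.180) without overlap. Srebf1, which encodes SREBP-1, read -1.80, -1.62 and -1.69 on the knockdown arrays and -0.89, -1.20 and -1.52 on the control arrays. Its groups did not overlap and its change was -0.50 (SE 0.18, limma adjusted p = 0.154). Insig2, an anchor that holds Scap in place, overlapped (-0.25, limma adjusted p = 0.382). Its paralogue Insig1 was well above background on 1 knockdown array and on 0 control arrays, too few for a test.

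Stard4, a cytosolic protein that ferries cholesterol between membranes, had the largest fall of all members. Its main probe, on chromosome 18, read 2.44, 2.68 and 2.54 on the knockdown arrays and 3.55, 3.73 and 3.45 on the control arrays. The lowest control value lay far above the highest knockdown value, and Stard4 fell 2.03-fold (log2 change -1.02, SE 0.12, limma adjusted p = 0.00570). A second probe of the gene gave -0.91. The call held with each array left out in turn (adjusted p 0.0173 to 0.0371) and in 17 of 18 alternatives, and ended within the first slide row alone (0.0559).

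The rest of this group did not pass. Mylip, a ubiquitin ligase that sends lipoprotein receptors to degradation and a classic LXR target, read -3.27, -2.71 and -3.15 in knockdown cells and -3.68, -4.08 and -3.38 in controls. All knockdown values were higher than all control values, and the change of 0.67 had a wide error (SE 0.23, limma adjusted p = 0.147). Its size depended on the background correction: the Mylip control signals were 21.2 to 37.7 units, and with normexp the log2 change was 0.19 (limma adjusted p = 0.298). Nr1h3, the LXRα gene, read -3.04, -2.89 and -2.76 on the knockdown arrays and -2.15, -2.54 and -2.40 on the control arrays. These did not overlap, with a change of -0.53 (SE 0.14, limma adjusted p = 0.0730), but its second probe gave -0.10. Nr1h2, the LXRβ gene, changed by -0.40 (limma adjusted p = 0.131). Soat1, which esterifies cholesterol for storage, was well above background on 0 knockdown and 0 control arrays.

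Of the 7 tested genes of fatty acid synthesis, 1 rose, 2 fell and 4 did not pass, with a median change of 0.06. The 3 enzymes that make the chain did not pass. Acly, which provides cytosolic acetyl-CoA from citrate, overlapped between the groups with a change of 0.06 (95% interval -0.21 to 0.34, limma adjusted p = 0.793), and its second probe had the opposite sign (-0.11). Acaca, the carboxylase that makes malonyl-CoA, overlapped as well with a change of 0.07 (95% interval -0.22 to 0.36, limma adjusted p = 0.770). Both lie so near 0 that array median scaling, which lowers every gene alike, turned their sign. Fasn, the synthase, read 0.62, 0.23 and 0.25 on the knockdown arrays and -0.27, -0.05 and -0.54 on the control arrays. The knockdown values were all higher, and the change of 0.66 did not pass (SE 0.18, limma adjusted p = 0.0774).

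Elovl6, which lengthens palmitate to stearate, was the one member that rose. It read 2.33, 2.13 and 1.99 on the knockdown arrays and 0.84, 0.94 and 0.76 on the control arrays. The groups were more than 1 log2 unit apart, a rise of 2.47-fold (log2 change 1.30, SE 0.12, limma adjusted p = 0.00267) at a probe on chr3:129341248-129341307 (mm9). It passed in 17 of 18 alternatives (adjusted p 3.19e-06 to 0.0915), and array median scaling ended the call, with a change of 1.07.

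Of the 3 desaturases tested, 2 fell and Scd2 did not pass. Scd2, which puts the first double bond into stearate, read 6.45, 6.52 and 7.08 in knockdown cells and 7.17, 7.27 and 7.21 in controls. The controls were tight and the third knockdown array lay close to them, and the change of -0.53 did not pass (SE 0.18, limma adjusted p = 0.146), and without knockdown replicate 3 it did (0.0257). Its paralogue Scd1 was well above background on 2 knockdown arrays and on 0 control arrays and was not tested.

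Fads1 and Fads2, the desaturases that make long polyunsaturated fatty acids, both fell. Fads1 read 3.42, 3.34 and 3.71 on the knockdown arrays and 4.13, 4.29 and 4.38 on the control arrays, a fall of 0.78 (SE 0.14, limma adjusted p = 0.0215) to 58.4% of the control level. Fads2 read 1.85, 1.80 and 2.02 on the knockdown arrays and 2.79, 2.66 and 2.73 on the control arrays, a fall of 0.84 (SE 0.10, limma adjusted p = 0.00672) to 56.0%, and -1.06 at its second probe. Neither gene overlapped between the groups. With arrays left out in turn the call of Fads2 held 6 times of 6 (adjusted p 0.0165 to 0.0469), and that of Fads1 held only without knockdown replicate 3 (0.0238 to 0.104).

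The third gene of that family, Fads3, lies beside them on chromosome 19 and went the other way. Its probe at chr19:10132641-10132700 is next to that of Fads2 at chr19:10137760-10137819, with that of Fads1 further along at chr19:10270530-10270589 (mm9). Fads3 read 4.42, 4.23 and 4.47 in knockdown cells and 3.84, 3.87 and 3.61 in controls. It rose by 0.60 without overlap (SE 0.12, limma adjusted p = 0.0340), and by 0.58 at its second probe, but none of the 6 fits with an array left out kept the call (0.0559 to 0.146).

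**Figure D3:**
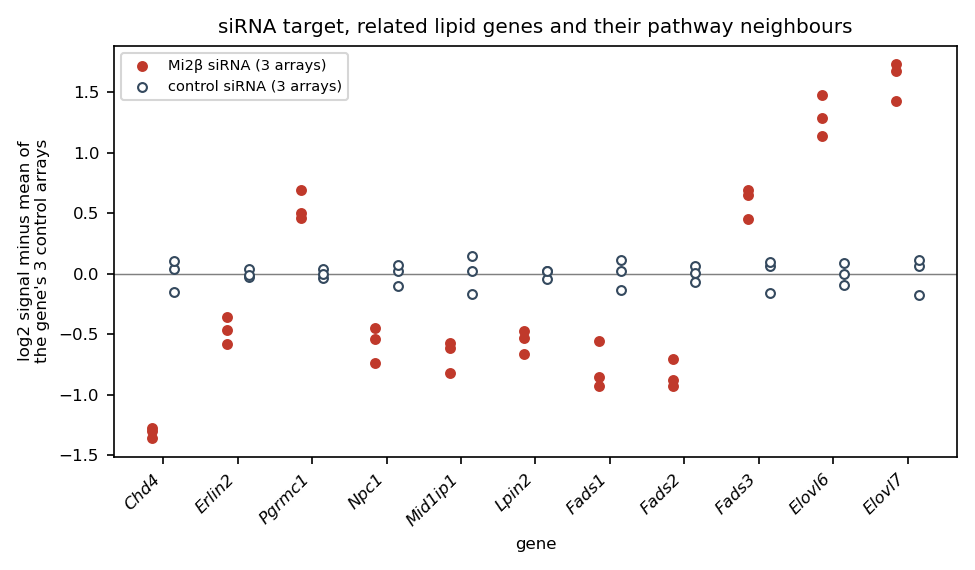
Log2 signal minus the mean of each gene's 3 control arrays (vertical axis, log2 units), 1 point per array, for the siRNA target Chd4, the 7 related genes that passed the test and 3 members beside them, with the 3 Mi2β siRNA arrays filled and left of the 3 open control siRNA arrays. Fads1 and Fads2 lie below their controls and Fads3 above, and Elovl6 and Elovl7 are the highest of the 11 genes.

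Genes around the pathway, 65 in all, were listed by function to set beside the members. Of the 61 tested, 3 rose, 4 fell and 54 did not pass, with a median change of 0.00, so their share of falls (6.56%) was close to that over all genes. In the isoprenoid branch, which draws on farnesyl pyrophosphate for ubiquinone, dolichol and protein prenylation, 0 of 15 genes passed and 7 were lower, with a median of 0.00; at an unadjusted limma p under 0.05, 2 were lower and 2 were higher. Among 10 genes of SREBP processing and degradation, Erlin2, an endoplasmic reticulum scaffold of that machinery, fell by 0.47 (limma adjusted p = 0.0387), and Pgrmc1, a haem-binding membrane protein, rose by 0.55 (0.0250). Among 8 tested genes of sterol uptake and export, Npc1, which releases cholesterol from lysosomes, fell by 0.58 (limma adjusted p = 0.0330).

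In fatty acid supply and elongation 2 of 17 tested genes rose and 1 fell. Elovl7, an elongase of the same family as Elovl6, read -1.49, -1.73 and -1.43 on the knockdown arrays and -3.10, -3.34 and -3.05 on the control arrays. It was 3.06-fold higher without overlap (log2 change 1.61, SE 0.13, limma adjusted p = 0.00178). The size depended on the background correction: the control signals were 35.5 to 47.4 units, and with normexp the log2 change was 0.86 (limma adjusted p = 0.000342). The other rise was Fads3. Mid1ip1, a small partner protein of acetyl-CoA carboxylase, fell by 0.67 (limma adjusted p = 0.0283). Lpin2, a phosphatidate phosphatase, was the 1 gene to pass among 11 of glycerolipid synthesis, with a fall of 0.56 (limma adjusted p = 0.0202). Apart from Elovl7, which passed in all 6, these calls were not stable to leaving out an array: Pgrmc1 (0.0506 to 0.109), Erlin2 (0.0583 to 0.164) and Npc1 (0.0524 to 0.125) passed in 0 of 6 such fits. Lpin2 passed only without knockdown replicate 3 (0.0449 to 0.0962) and Mid1ip1 only without control replicate 3 (0.0376 to 0.103).

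**Figure D4:**
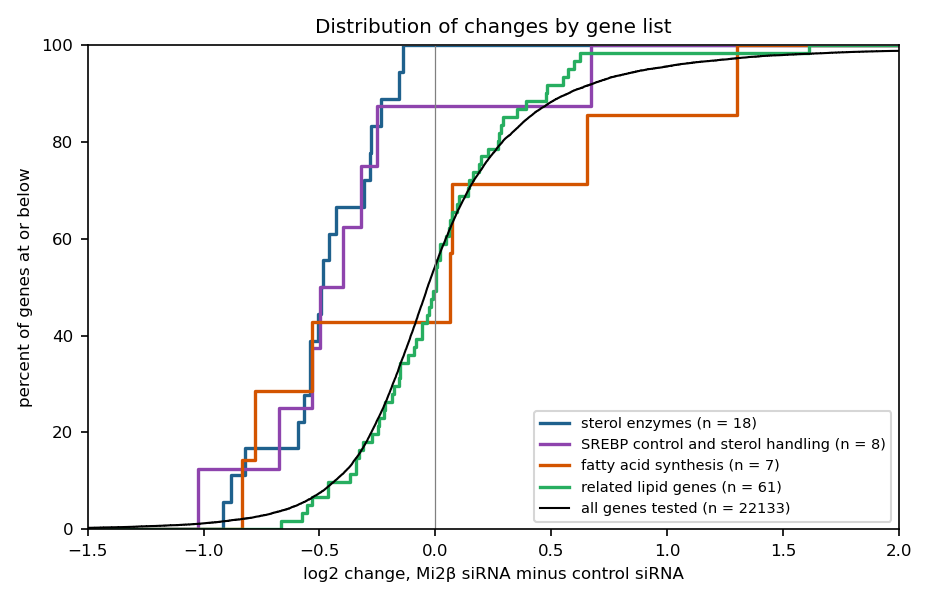
Cumulative share of genes (vertical axis, percent) at or below each log2 change, Mi2β siRNA minus control siRNA (horizontal axis, log2 units), for the 18 sterol enzymes, 8 genes of SREBP control and sterol handling, 7 genes of fatty acid synthesis, 61 related lipid genes and all 22133 genes tested. The curve of the sterol enzymes reaches 100% left of 0, while that of the related genes runs along that of all genes.

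The start regions of 5 of the 6 sterol enzymes that fell are shown because these genes moved in the same direction; no window was used here for Fdps. RefSeq windows of 300 bases on GRCm38.p6, from 250 before to 50 after the annotated start, were on hand for 29 of the 36 members, among them 15 of the 18 sterol enzymes. They were searched on both strands for 5 motifs. TCACNCCAC spells a classic sterol regulatory element, and CCAAT is the box bound by the factor NF-Y. The GC box bound by Sp factors was searched as GGGCGG. A motif of the GATA factors was searched as AGATAA, and the E-box of many helix-loop-helix factors as CACGTG. None of these motifs contains another. In the windows below, each written 5′ to 3′ on the strand of the gene, capitals mark CCAAT or its reverse complement and, in Hmgcs1, the sterol regulatory element.
Hmgcs1 (chr13:119690101-119690400, plus strand): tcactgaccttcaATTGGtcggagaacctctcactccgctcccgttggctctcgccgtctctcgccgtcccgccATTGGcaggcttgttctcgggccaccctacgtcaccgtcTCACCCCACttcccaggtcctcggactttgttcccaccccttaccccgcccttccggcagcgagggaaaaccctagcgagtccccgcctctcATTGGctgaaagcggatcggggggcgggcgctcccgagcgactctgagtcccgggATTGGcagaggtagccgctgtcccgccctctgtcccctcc
Mvd (chr8:122443373-122443672, minus strand): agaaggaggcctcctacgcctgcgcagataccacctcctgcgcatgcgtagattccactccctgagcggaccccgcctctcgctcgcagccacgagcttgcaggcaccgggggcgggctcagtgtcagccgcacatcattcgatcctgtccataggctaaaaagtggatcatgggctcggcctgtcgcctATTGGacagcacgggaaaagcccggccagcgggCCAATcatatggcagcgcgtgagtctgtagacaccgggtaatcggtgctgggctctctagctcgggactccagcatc
Idi1 (chr13:8885356-8885655, plus strand): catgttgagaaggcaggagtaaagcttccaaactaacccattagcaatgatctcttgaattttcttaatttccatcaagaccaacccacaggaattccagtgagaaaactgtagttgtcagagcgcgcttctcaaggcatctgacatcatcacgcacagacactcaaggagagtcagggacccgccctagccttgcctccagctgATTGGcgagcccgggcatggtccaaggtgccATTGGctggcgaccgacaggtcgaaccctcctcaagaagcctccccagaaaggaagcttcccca
Lss (chr10:76531355-76531654, plus strand): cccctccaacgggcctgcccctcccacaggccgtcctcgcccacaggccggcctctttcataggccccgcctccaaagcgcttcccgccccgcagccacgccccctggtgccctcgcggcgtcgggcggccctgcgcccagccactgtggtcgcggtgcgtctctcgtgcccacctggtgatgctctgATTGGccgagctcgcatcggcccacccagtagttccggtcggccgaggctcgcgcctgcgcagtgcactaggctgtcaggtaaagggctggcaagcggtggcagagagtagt
Sc4mol (chr8:64733529-64733828, minus strand): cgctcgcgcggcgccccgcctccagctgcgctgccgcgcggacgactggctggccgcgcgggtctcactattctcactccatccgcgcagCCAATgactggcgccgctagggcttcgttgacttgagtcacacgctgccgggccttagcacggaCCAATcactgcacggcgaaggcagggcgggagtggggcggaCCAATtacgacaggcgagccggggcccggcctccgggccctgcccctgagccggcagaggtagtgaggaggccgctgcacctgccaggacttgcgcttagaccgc

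Each of these 5 windows held CCAAT on one strand or the other between 62 and 45 bases before the start. Counting the first base of the match, it lay at -45 in Hmgcs1 and Idi1, -60 in Mvd, -62 in Lss and -55 in Sc4mol. That stretch was picked after the matches were seen. Further matches lay at -237, -176 and 11 in Hmgcs1, -27 in Mvd, -14 in Idi1, and -160 and -96 in Sc4mol. How often other promoters hold CCAAT in that stretch was not counted. Counting a gene where any of its windows matched, CCAAT occurred in 14 of the 15 sterol enzymes (93.3%), against 41.1% of all 27025 genes in the table (37.4% of its 32851 windows), and in 2 of 5 genes of fatty acid synthesis. GGGCGG occurred in the same number of sterol enzymes, 14 of 15, against 38.2% of all genes (35.7% of windows). These shares of all genes were not limited to genes detected in these cells, while the sterol enzymes were all detected. Among the members that fell, 5 of 7 held CCAAT and 7 of 7 held GGGCGG, against 15 of 19 and 14 of 19 among those that did not pass. The sterol regulatory element letters occurred in 1 of 29 members, Hmgcs1, at -137, against 1.44% of all genes (1.24% of windows). AGATAA was in 1 of 29 members and 12.7% of all genes (11.2% of windows), and CACGTG was in 5 of 29 members and 8.09% of all genes (7.15% of windows). A match here is a run of letters and not a measured binding site. The window of Elovl6, the member that rose, at chr3:129532136-129532435, held none of the 5 motifs.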

How the data were processed

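Total RNA from the 6 samples was labelled with Cy3 and hybridised to 1-colour Agilent mouse arrays, 1 array per sample. The deposited intensity values are, per the file headers, background-subtracted processed signals from version 10.7.3.1 of Agilent's Feature Extraction software, with probe positions on mm9. The deposited value table held the same intensity values for 100% of 377856 values compared, within 0.005 or the printed precision. The submitters' processing notes also name limma; the steps they ran are not given in the sources used here.

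Log2 of the processed signal minus each array's 75th percentile over non-control spots was used. Control spots and outlier-flagged spots were left out, spots of 1 probe were averaged, and a probe entered when well above background on at least 3 arrays (31889 of 55681 probes). Each gene took its brightest such probe, which gave 22133 genes. Gene names were updated by accession through RefSeq GRCm38.p6 (27509 of 29150 accession probes matched). Knockdown was compared with control with lmFit and eBayes in limma 3.58.1 (R 4.3.3), two-sided, over 3 arrays a group. The number of arrays limits the precision. The fit was tested on simulated data. No spot was saturated. Same-numbered knockdown and control arrays did not deviate together (correlations 0.21, -0.32 and 0.13), so the main fit has no replicate block.

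Alternatives were normexp background correction, quantile or median scaling, other detection filters, the mean over probes, an intensity trend with array weights, slide row, the replicate block, the deposited table, each array left out, and, chosen after seeing the data, the 75th percentile over averaged probes. The members and lists were chosen with earlier results of these data known. Every member is named; values on each array are given for members past the threshold, for the 8 largest changes that missed it, and for Tm7sf2, Fads3 and Elovl7, singled out after their values were seen. Related genes are named where past the threshold. Protein sequences and the exon under each probe were not used here.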

Additional observations from a re-analysis of the deposited data

How the results depend on the processing

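The 18 sterol enzymes stayed below 0 under each of the 18 alternatives, and Chd4 passed in all of them. Their sign could not have turned under array median scaling, which lowers every gene alike. Nor could it under the slide row block, the replicate block, the deposited table or the other detection filters. Those leave each of these changes as in the main fit. The number that passed was not stable. Members that fell numbered 10, and then 16 with normexp background correction, 1 with array median scaling, 4 with no detection filter, 15 with detection on all 6 arrays, 26 with an intensity trend and array weights, 2 within the first slide row alone and 1 with the replicate block. With an array left out in turn they numbered 2 to 7. Members that rose numbered 2 with normexp, with detection on all 6 arrays and with the trend and weights, 0 with array median scaling, and 1 in every other setting tried. Over all genes, falls numbered 1670 with normexp, 335 with array median scaling, 332 with no filter, 3662 with trend and weights, 226 in the first slide row, 183 with the replicate block and 256 to 681 with an array left out. Rises numbered 496, 661, 2740, 494, 502 and 557 to 898 under array median scaling, no filter, trend and weights, the first slide row, the replicate block and single arrays left out. With normexp 1410 genes rose. Detection on all 6 arrays left 18689 genes, of which 1478 fell and 1265 rose. The cause of these shifts was not tested. The fits with an array left out and the fit of the first slide row also have fewer arrays than the main fit. In the fit with the replicate block Stard4 and Elovl6 passed and no other member did, and the numbers do not pair the samples. The sign of Acly, near 0, turned with array median scaling, by that same shift (-0.17), the mean over probes (-0.025), trend and weights (-0.0175) and the first slide row (-0.0583). With arrays left out Acly ran from -0.0044 to 0.1218. The sign of Acaca turned with array median scaling (-0.16) and in the first slide row (-0.0181), and with arrays left out it ran from -0.0138 to 0.1509. Neither gene passed under any of these. Over the named genes and all settings, 133 calls were lost and 36 were gained. A gene past the threshold in the main fit could only lose a call, and the related genes counted were all of that kind. Insig1, Soat1 and Scd1 lay too near background for a test.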
